A study of Mus musculus with 32 samples.

Results

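The footprint response to interferon-β (IFN-β) was compared between 2 h and 14 h of exposure in cultured neural stem cells (NSCs), gene by gene. All 16 footprint libraries of the series, out of 32 samples, entered the comparison. They form 8 culture pairs, since each IFN-β library was set against the vehicle library with its own replicate number at the same time. Of 23035 genes in the footprint tables, 12508 were tested, those with a count of 10 or more in 4 or more libraries. Each gene was then sorted by whether its response lasted, faded, grew or changed sign between the 2 exposures.

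The cells were NSCs of C57BL/6 mice aged 8 to 12 weeks, taken from the ventricular-subventricular zone (vSVZ) and grown ex vivo. Vehicle or IFN-β was given 48 h after seeding and left for 2 h or 14 h, each arm with a vehicle group of its own, and there were 4 cultures in each of the 4 groups. Ribosomes were halted with cycloheximide for 5 min, the lysates were digested with RNase I, and RNA fragments of 26 to 34 nt shielded by ribosomes, the footprints, were sequenced and counted over coding sequences. The labels name no transgene or deletion in any group, and the study describes its replicates as different mice or cultures.

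The replicate numbers were 2, 3, 5 and 6 in the 2 h arm and 1 to 4 in the 14 h arm, so each time point was a set of libraries of its own, and time and set cannot be told apart. A difference between times below is therefore a difference between 2 contrasts, each with its own vehicle cultures. The total count per footprint library ran from 2956297 to 10505108 (the lower end was IFN-β at 14 h, replicate 1). Levels are given as counts per 1000000 counts of the library (CPM) after TMM scaling, which sets each gene against the rest of its library, so a change in translation shared by all genes cannot be seen. A footprint level joins the amount of an mRNA and its use by ribosomes, and in a bulk culture fewer cells of a type and less RNA per cell cannot be told apart. Values in 4 libraries are listed in the order of their replicate numbers.

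The label of the cells was set against marker genes. Sox2, a transcription factor of neural stem cells, lay between 199 and 495 CPM over the 16 libraries, and the intermediate filament gene Nes between 1674 and 4107 CPM. All 27 stem cell and glial markers passed the count filter, while of 15 microglial and immune cell markers 6 had no count in any library and 12 stayed under 10 counts in every library. Of 10 endothelial and mural markers 5 stayed under 10 counts in every library, as did 4 of 11 markers of mature neurons. Of 12 oligodendrocyte lineage genes only 3 did so. Among these 12, Olig1 lay between 1040 and 1870 CPM and Cnp between 93.9 and 472 CPM. Both libraries of replicate 3 at 2 h stood apart, with a median absolute deviation from their group mean of 0.216 (vehicle) and 0.213 (IFN-β) on the log2 scale, against 0.0662 to 0.126 in the other 14. That pair held more Gfap, an astrocytic intermediate filament gene, which read 3.51, 114, 4.90 and 0.689 CPM in the vehicle libraries at 2 h. Vehicle and IFN-β libraries of the same number deviated together in all 8 pairs (correlations of 0.19 to 0.80), and the pair was kept as a block.

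Type I interferons bind the receptor Ifnar1 and Ifnar2, whose kinases Jak1 and Tyk2 phosphorylate Stat proteins such as Stat2. With Irf9 these form a complex that enters the nucleus and binds the interferon-stimulated response element (ISRE), switching on interferon-stimulated genes (ISGs), whose products degrade viral RNA, block viral translation and display peptides on MHC class I. Feedback proteins such as Socs1, Socs3 and Usp18 dampen the receptor, and a separate branch through Stat dimers acts on the gamma-activated site (GAS). Growth and the cell cycle are also targets of interferon, and mRNAs that begin with a 5′ terminal oligopyrimidine motif (TOP-mRNAs), which encode ribosomal proteins and translation factors, are translated under the control of mTOR.

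The promoter stretches that bear the sites named above are shown first, for genes of each response described below. They were read from the RefSeq promoter table of GRCm38.p6, which spans 250 bases before to 50 bases after each annotated start and matched 9636 of the tested genes (77.0%) with 12366 windows. Capitals mark the match and 10 bases stand on each side. In growing and lasting ISGs the capitals mark the core of an ISRE, GAAANNGAA on either strand.
Ifit3, chr19:34583364-34583392, plus strand: agtggtaagtTTCACTTTCctcttctggt
H2-T23, chr17:36032806-36032834, minus strand: tcctactgctTTCTCTTTCataaagacac
Bst2, chr8:71537584-71537612, minus strand: ggcattccagGAAAATGAAactgaaaggc
Isg15, chr4:156200878-156200906, minus strand: tatgccgtagGAAAAGGAAaccgaaacag
Cd274, chr19:29367352-29367380, plus strand: actgggtggcTTCGGTTTCacagacagcg
Irgm1, chr11:48871432-48871460, minus strand: cctgtttcaaGAAATAGAAaccgaaactg

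In fading genes they mark a GAS, TTCNNNGAA, which reads alike on both strands.
Zfp36, chr7:28379227-28379255, minus strand: acagcctgacTTCTGCGAAccgacagtcg
Irf1, chr11:53769914-53769942, plus strand: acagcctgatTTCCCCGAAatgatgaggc
Irf2, chr8:46739511-46739539, plus strand: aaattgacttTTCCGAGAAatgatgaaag

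In cell cycle and replication genes with a growing fall (the repressor gene E2f7, Cdc6 and Pole2) they mark an E2F site, TTTGGCGC or TTTCCCGC on either strand, and in mitotic kinesin genes a cell cycle homology region (CHR), TTTGAA on either strand.
E2f7, chr10:110745231-110745258, plus strand: ccgcgtccccGCGGGAAAcgctcccgcg
Cdc6, chr11:98908003-98908030, plus strand: ccggtggagaGCGGGAAAtcgcctgggg
Pole2, chr12:69228163-69228190, minus strand: gtcggcggtgGCGCCAAAtcgcgaacat
Kif11, chr19:37376353-37376378, plus strand: gtctccatttTTCAAAattgaggcgc
Kif23, chr9:61946782-61946807, minus strand: gattggcctgTTTGAAatgcgccggg
Kif4, chrX:100626074-100626099, plus strand: ctgggatcaaTTTGAAacttggcggt

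In ribosomal protein genes they mark the pyrimidine run that begins at the annotated start, a C followed by at least 4 pyrimidines.
Rps27, chr3:90213632-90213658, minus strand: cgctttcgctCCTTTCCggcggtgacg
Rps6, chr4:86857349-86857377, minus strand: gaagtcgggcCTCTTTTTCgtgacgcctc
Rpl14, chr9:120571507-120571532, plus strand: ggccctctctCTTCTCgctgagcgcc
Rps15a, chr7:118116130-118116157, minus strand: tttctgccatCTTCCCTCgccggtgagt

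The response is the log2 ratio of IFN-β over vehicle, and a call is an adjusted p under 0.05 by the quasi-likelihood test of edgeR, adjusted by Benjamini-Hochberg over all 12508 genes. By this test 3914 genes (31.3%) responded at 2 h, 2056 higher and 1858 lower, and 7476 genes (59.8%) at 14 h, 3854 higher and 3622 lower. The 14 h response differed from the 2 h response in 6930 genes (55.4%), of which 3491 had the higher and 3439 the lower response at 14 h. With libraries scaled by total counts alone, 1750 were higher and 2565 lower at 2 h, so the direction of small changes at 2 h depended on the scaling. Over all genes tested the median response was -0.02 at 2 h and 0.01 at 14 h. Values after ± below are the size of an estimate divided by the square root of the F statistic of its test. For large responses they are no plain standard error, and those of 2 responses need not combine into that of their difference.

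A growing response is one whose difference between times was called, that was called at 14 h and was larger there. It was the most frequent class, with 2004 genes upwards (16% of those tested) and 2141 downwards (17.1%). A fading response, called at 2 h and larger there with the difference called, was found upwards in 566 genes (4.53%) and downwards in 517 (4.13%). A sign-changing response was called at both times in opposite directions, as well as in the difference. It went from lower to higher in 773 genes (6.18%) and from higher to lower in 632 (5.05%). A lasting response was called at both times with the same sign and with no call for the difference. It was found upwards in 395 genes (3.16%) and downwards in 244 (1.95%). The remaining 5236 genes were unsorted, 3484 of them with no call at all, 1086 called only at 14 h, 369 called only at 2 h, 273 called only in the difference and 24 with another set of calls. Without the pair as a block the classes held 1273 and 1408 growing, 308 and 246 fading, 165 and 92 sign-changing, and 239 and 53 lasting genes, upwards and downwards in each case. Of the 3784 genes sorted without the block, 3111 fell into the same class and direction, and 671 were sorted both ways into another class.

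Most growing responses were late. Of those upwards 1709 were not called at 2 h in the same direction and 295 were already called and then grew, and of those downwards the numbers were 2020 and 121. The median responses of the growing genes were -0.03 at 2 h and 0.48 at 14 h upwards, and 0.01 and -0.52 downwards. Fading responses had medians of 0.62 and 0.02 upwards and of -0.44 and 0.07 downwards, and 424 and 480 of them were no longer called at 14 h. Sign-changing responses went from a median of -0.35 to 0.40, or from 0.28 to -0.42. Lasting responses had medians of 0.45 and 0.46 upwards and of -0.32 and -0.34 downwards. The 95% interval of their difference lay within ±1 on the log2 scale in 318 of the 395 and 231 of the 244 genes, and in the others the data do not bound it so narrowly. A difference of at least 1 was reached by 402 growing genes upwards and 454 downwards, and by 132 and 90 fading and 256 and 136 sign-changing genes. These values describe the sorting, which used the same fit. At the threshold itself stood Tmem28 (1.17 ± 0.51, adjusted p = 0.04971) and Mks1 (0.49 ± 0.21, adjusted p = 0.04984) on the inner side, and Acp1 (-0.37 ± 0.16, adjusted p = 0.05002) and D130040H23Rik (0.63 ± 0.28, adjusted p = 0.05003) on the outer side.

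**Figure D1:**
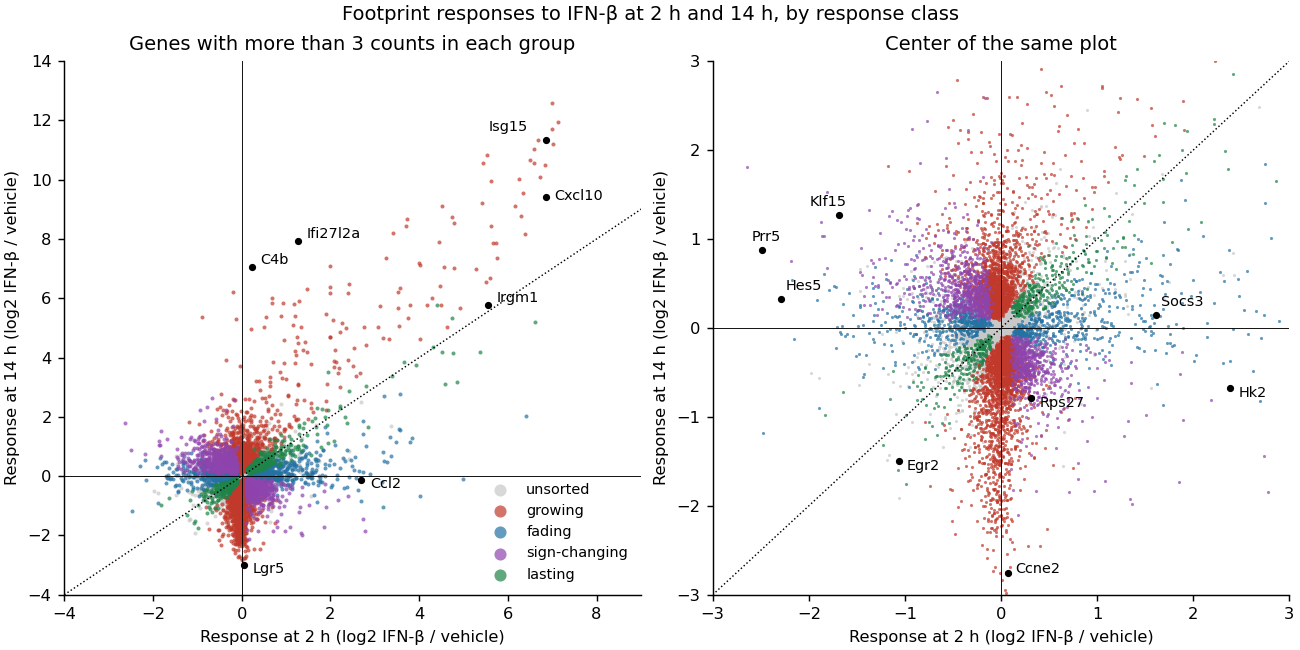
Each point is a tested gene with more than 3 counts in each group, with its response at 2 h on the x axis and at 14 h on the y axis, both as log2 of IFN-β over vehicle, and with colours for the class. The right panel enlarges the center of the left one, and the dotted line marks equal responses. Isg15 lies far above that line at 6.86 and 11.35, Irgm1 close to it at 5.56 and 5.77, and Ccl2 below it at 2.70 and -0.11.

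The signalling chain itself divided between growing and fading responses. Of 8 receptor and JAK-STAT genes 4 grew, among them Stat2, Irf9 and Tyk2, Jak1 and Stat3 faded, Ifnar2 lasted and Ifnar1 was unsorted (median response 0.82 at 2 h and 0.66 at 14 h). Without the pair as a block 1 of the 8 faded, and none lasted there, with total counts alone or with DESeq2. Stat2 stood at 11.4, 15.7, 13.6 and 11.6 CPM in the vehicle libraries and 196, 271, 207 and 177 CPM in the IFN-β libraries at 2 h, and at 12.9, 10.6, 10.8 and 10.1 CPM and 261, 266, 288 and 272 CPM at 14 h. Treated and vehicle libraries did not overlap at either time. The response grew from 4.02 ± 0.06 to 4.64 ± 0.06 (4 pairs at each time), a difference of 0.62 ± 0.11, adjusted p = 1.2e-05. Irf9, the DNA-binding partner of the Stats, moved from 4.49 ± 0.10 to 5.77 ± 0.11 (difference 1.28 ± 0.23, adjusted p = 1.4e-05). Tyk2 was late, at -0.08 ± 0.12 and 0.84 ± 0.10 (difference 0.91 ± 0.16, adjusted p = 8.3e-06). The partner kinase went the other way. Jak1 stood at 194, 215, 206 and 175 CPM in the vehicle libraries and 362, 414, 374 and 348 CPM in the IFN-β libraries at 2 h, and at 148, 149, 148 and 152 CPM and 183, 189, 207 and 196 CPM at 14 h, and its response fell back from 0.92 ± 0.04 to 0.38 ± 0.04 (difference -0.55 ± 0.06, adjusted p = 5.1e-10). Stat3, which serves many cytokines, went from 0.71 ± 0.05 to 0.33 ± 0.05 (difference -0.38 ± 0.07, adjusted p = 2.8e-05). Of the receptor chains, Ifnar2 responded with 0.29 ± 0.10 at 2 h and 0.49 ± 0.10 at 14 h, with a difference of 0.20 ± 0.14, adjusted p = 0.23, and Ifnar1 with -0.08 ± 0.04 at 2 h and -0.07 ± 0.04 at 14 h.

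The interferon regulatory factors, transcription factors that bind ISRE-like sites, were split as well. Of 5 tested, Irf7 grew, Irf1, Irf2 and Irf8 faded and Irf3 was unsorted. Without the pair as a block Irf7 counted as lasting. Irf7, which sustains interferon production, lay at 0.265 to 0.560 CPM with vehicle and 27.4, 54.2, 39.5 and 22.2 CPM with IFN-β at 2 h, and at 0.0950 to 0.371 CPM and 240, 219, 149 and 94.7 CPM at 14 h. Treated and vehicle libraries did not overlap, and the response grew by 3.21 ± 0.64, adjusted p = 5.7e-05. Irf1 stood at 15.5, 14.8, 15.0 and 14.9 CPM in the vehicle libraries and 173, 171, 187 and 193 CPM in the IFN-β libraries at 2 h, and at 6.82, 6.99, 7.31 and 9.41 CPM and 42.3, 50.6, 57.4 and 59.3 CPM at 14 h. The IFN-β libraries at 14 h were still above every vehicle library, but below every IFN-β library at 2 h, and the response weakened from 3.58 ± 0.06 to 2.78 ± 0.09 (difference -0.80 ± 0.12, adjusted p = 1.4e-06). Irf1 overlaps an annotated exon on the opposite strand, and the strand setting of the counting is not given in the sources used here, so its reads are uncertain. Irf8, a factor best known from myeloid cells, stood at 0.957, 1.54, 1.72 and 1.10 CPM with vehicle and 7.83, 6.95, 5.30 and 8.13 CPM with IFN-β at 2 h, and its response went from 2.42 ± 0.25 to -0.01 ± 0.49 (difference -2.43 ± 0.58, adjusted p = 0.00053). Irf2 went from 1.44 ± 0.12 to 0.74 ± 0.13 (difference -0.70 ± 0.18, adjusted p = 0.0066), and Irf3, which is activated by phosphorylation, read -0.01 ± 0.08 at 2 h and -0.14 ± 0.08 at 14 h.

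Feedback inhibitors faded in 4 of 9 genes, with medians over the list of 1.62 at 2 h and 0.15 at 14 h. Socs3 stood at 4.36, 3.92, 3.58 and 4.00 CPM in the vehicle libraries and 9.10, 14.9, 12.3 and 13.8 CPM in the IFN-β libraries at 2 h, and at 1.26, 1.30, 2.23 and 1.61 CPM and 2.69, 2.58, 1.04 and 1.40 CPM at 14 h. All 4 treated libraries exceeded the vehicle libraries at 2 h and overlapped with them at 14 h, when the level was lower in every library of either group than in any vehicle library at 2 h. The response of this inhibitor of Jak kinases faded from 1.62 ± 0.18 to 0.15 ± 0.33 (difference -1.47 ± 0.37, adjusted p = 0.0012). Cish, a relative that acts on Stat5, went from 1.76 ± 0.18 to 0.72 ± 0.24 (difference -1.04 ± 0.31, adjusted p = 0.0045), the tyrosine phosphatase gene Ptpn1 from 0.96 ± 0.05 to -0.11 ± 0.06 (difference -1.07 ± 0.08, adjusted p = 5.0e-14) and Ptpn2 from 0.60 ± 0.08 to -0.14 ± 0.08 (difference -0.75 ± 0.11, adjusted p = 1.4e-06). Usp18, which removes Isg15 from proteins and blocks Ifnar2, was the one that grew. It lay at 1.28 to 2.65 CPM with vehicle and 139 to 290 CPM with IFN-β at 2 h, and at 0 to 0.619 and 547 to 710 CPM at 14 h, a difference of 4.66 ± 0.40, adjusted p = 4.6e-12. Socs1 was called at both times, at 5.37 ± 0.26 and 4.18 ± 0.34, and the difference of -1.19 ± 0.69, adjusted p = 0.14 was not called. Its 95% interval ran from -2.59 to 0.21. Cish and Usp18 overlap exons on the opposite strand. Pias1 and Ptpn11 showed no call at either time, and Socs2 had responses of 2.42 ± 0.49 at 2 h and 0.59 ± 0.97 at 14 h with a difference of -1.83 ± 1.27, adjusted p = 0.22.

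Antiviral effectors grew. Of 39 tested, 29 had a growing response upwards, 27 of them already called at 2 h, and 10 lasted, with none in another class. The list's medians were 4.63 at 2 h and 8.17 at 14 h, or 4.37 and 7.76 when genes with a group at 3 counts or fewer were set to their bound. In the 4 pairs at 2 h the median over the list, from CPM with a pseudocount of 0.5, was 2.95 to 3.59, and at 14 h it was 5.81 to 6.54. The treated level itself was higher at 14 h than at 2 h in 34 of the 39.

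Isg15 stood at 2.77, 3.22, 2.25 and 2.62 CPM in the vehicle libraries and 322, 408, 308 and 232 CPM in the IFN-β libraries at 2 h, and at 0.718, 0.399, 0.743 and 0.285 CPM and 1190, 1313, 1400 and 1407 CPM at 14 h. Isg15 is a ubiquitin-like protein attached to other proteins during infection. No treated library came near a vehicle library, the treated libraries at 14 h lay above those at 2 h, and the vehicle libraries at 14 h lay below those at 2 h. The response grew from 6.86 ± 0.08 to 11.35 ± 0.09 (difference 4.49 ± 0.28, adjusted p = 3.8e-16). Bst2 stood at 2.77, 6.16, 1.06 and 2.34 CPM in the vehicle libraries and 28.7, 49.7, 29.2 and 22.9 CPM in the IFN-β libraries at 2 h, and at 2.51, 2.10, 1.86 and 1.24 CPM and 492, 571, 486 and 586 CPM at 14 h. Bst2, or tetherin, holds budding virions at the cell surface, and its response went from 3.42 ± 0.15 to 8.19 ± 0.11 (difference 4.77 ± 0.30, adjusted p = 2.6e-12), with the treated libraries at 14 h far above the treated libraries at 2 h and vehicle levels that overlapped. Ifit3 stood at 4.68, 6.44, 4.90 and 6.48 CPM in the vehicle libraries and 588, 1068, 736 and 496 CPM in the IFN-β libraries at 2 h, and at 0.359, 0.0998, 0.371 and 0.190 CPM and 1352, 1479, 1601 and 1613 CPM at 14 h. The Ifit proteins bind viral RNA and hold back its translation, and Ifit3 grew by 5.58 ± 0.33, adjusted p = 4.4e-13 with a rise in treated and a fall in vehicle libraries.

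Members that act on RNA differed in how much had happened by 2 h. Rsad2, or viperin, moved from 6.71 ± 0.09 to 10.09 ± 0.11 (difference 3.38 ± 0.26, adjusted p = 2.8e-09), and Eif2ak2, the kinase that stops translation on sensing double-stranded RNA, from 2.50 ± 0.06 to 3.70 ± 0.06 (difference 1.20 ± 0.09, adjusted p = 3.8e-13). The RNA editing enzyme gene Adar moved from 1.41 ± 0.06 to 2.58 ± 0.06 (difference 1.16 ± 0.08, adjusted p = 1.2e-14). Ifitm3, whose product blocks viral entry at endosomes, lay at 96.5 to 145 CPM with vehicle and 251 to 331 CPM with IFN-β at 2 h, and at 71.8 to 102 and 1591 to 1981 CPM at 14 h. Its response grew by 3.20 ± 0.11, adjusted p = 6.1e-10. Ifi35 and Nmi, which bind each other, grew by 4.73 ± 0.46 and 2.22 ± 0.15 (adjusted p = 4.8e-11 and 4.4e-15). For 7 of the 10 lasting members a group held 3 counts or fewer, so that no fold is given for them. Zbp1, a sensor of Z-form nucleic acids, is one of these. It was at 0, 0, 0 and 0 CPM with vehicle and 2.27, 2.45, 1.95 and 1.49 CPM with IFN-β at 2 h, and at 0, 0, 0 and 0 and 66.5, 83.2, 101 and 88.7 CPM at 14 h. Its treated level was higher in every library at 14 h, while no vehicle library held a count of it. The lasting members with more counts were Isg20, Apobec3 and Slfn9.

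Interferon-inducible GTPases, which attack the membranes around intracellular pathogens, followed the same course, with 11 of 13 growing and called already at 2 h (medians 5.74 at 2 h and 7.88 at 14 h). Irgm1 lasted and Gvin1 was unsorted. Gbp2 stood at 25.2, 39.2, 30.6 and 26.5 CPM in the vehicle libraries and 1216, 2461, 1638 and 1298 CPM in the IFN-β libraries at 2 h, and at 3.41, 4.29, 5.20 and 6.65 CPM and 1006, 1073, 1291 and 1346 CPM at 14 h. Unlike Isg15, the treated levels of this guanylate-binding protein overlapped between the times, while the vehicle level was lower in every library at 14 h, and the response went from 5.74 ± 0.05 to 7.88 ± 0.07 (difference 2.14 ± 0.11, adjusted p = 1.0e-17). Gbp2 overlaps an exon on the opposite strand. Igtp grew by 2.46 ± 0.20, adjusted p = 1.2e-12 from treated levels of 361 to 678 CPM at 2 h and 493 to 651 CPM at 14 h, with vehicle at 4.13 to 8.68 and 0.718 to 2.10 CPM. Irgm1 stood at 12.9, 13.2, 12.8 and 10.6 CPM in the vehicle libraries and 529, 785, 547 and 507 CPM in the IFN-β libraries at 2 h, and at 7.54, 8.38, 6.69 and 6.94 CPM and 370, 412, 417 and 412 CPM at 14 h. Its treated libraries were lower at 14 h than at 2 h without exception, as were its vehicle libraries, and the responses of 5.56 ± 0.06 at 2 h and 5.77 ± 0.07 at 14 h differed by 0.22 ± 0.12, adjusted p = 0.14.

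Cytosolic sensors of nucleic acids grew in 7 of 9 genes tested (medians 3.76 at 2 h and 5.34 at 14 h). Ifih1, or MDA5, moved from 4.74 ± 0.11 to 8.72 ± 0.10 (difference 3.99 ± 0.29, adjusted p = 3.0e-14) and Ddx58, or RIG-I, from 4.17 ± 0.08 to 5.77 ± 0.08 (difference 1.61 ± 0.14, adjusted p = 1.3e-10). Their shared adaptor Mavs was unsorted at -0.16 ± 0.07 and -0.03 ± 0.07.

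The rise in these ratios came from both sides of the contrast, as the genes with the largest early responses show. There were 17 genes with a treated level of at least 50 CPM and a response of at least 6 at 2 h, namely Cxcl10, Gm4951, Ifi44, Ifi47, Ifit1, Ifit3, Ifit3b, Igtp, Iigp1, Irgm2, Isg15, Mx2, Oasl1, Oasl2, Rsad2, Rtp4 and Usp18. All 17 were growing. In them the vehicle level was 0.667% to 1.37% of the treated level at 2 h (median 0.854%), and 0.0115% to 0.345% at 14 h (median 0.0416%). Among genes with more than 3 counts in each group no response at 2 h exceeded 7.13, while the largest at 14 h was 12.57. The vehicle level of the 17 genes changed by a median of -1.84 between the times, with the lowest at -4.02, on log2 of CPM plus 0.5. A response of at least 6 caps the vehicle share at 2 h, so its low value there follows from how the 17 were chosen. The choice sets no lower limit on that share, and why it stayed at 0.667% or above at 2 h was not tested. In 4 of the 17 the treated level was lower at 14 h than at 2 h although the response is classed as growing. Cxcl10 stood at 15.7, 17.8, 22 and 17.8 CPM in the vehicle libraries and 1490, 3103, 2451 and 1686 CPM in the IFN-β libraries at 2 h, and at 0.359, 0.499, 1.24 and 0.665 CPM and 322, 417, 581 and 564 CPM at 14 h. This chemokine, which attracts T cells, is such a case, since treated and vehicle levels were both lower in every library at 14 h, vehicle by more, and the response went from 6.86 ± 0.11 to 9.40 ± 0.19 (difference 2.54 ± 0.43, adjusted p = 0.00088). Over all 2004 genes growing upwards the treated level was higher at 14 h in 1682 and lower in 322. Its median change was 0.386, beside 0.0055 over all genes tested. The class was chosen for a higher response at 14 h, so these values describe it. No share over all genes tested stands beside the counts.

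**Figure D2:**
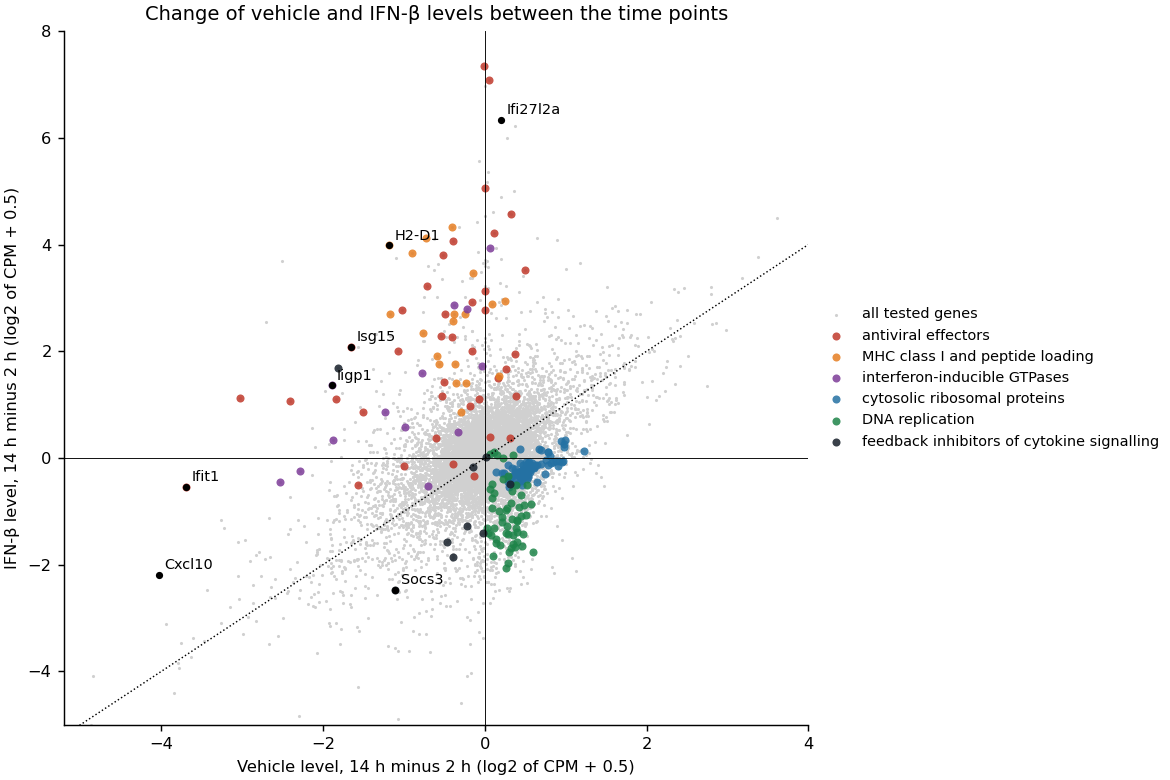
Each point is a tested gene, with the change of its mean vehicle level from 2 h to 14 h on the x axis and the change of its IFN-β level on the y axis, both on log2 of CPM plus 0.5. Colours mark 6 lists and the dotted line marks equal change, so genes above it had the higher response at 14 h. Isg15 and Ifi27l2a moved up with IFN-β, Cxcl10 moved down on both axes, and the ribosomal protein genes lie to the lower right, at a median of 0.51 for vehicle and -0.21 for IFN-β.

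Antigen presentation genes moved mainly after 2 h. All 19 genes of MHC class I and peptide loading were growing upwards and already called at 2 h, with medians of 1.48 at 2 h and 4.64 at 14 h, and pair medians of 1.31 to 1.75 at 2 h and 4.44 to 4.66 at 14 h. H2-D1 stood at 30.6, 50.1, 34.4 and 34.0 CPM in the vehicle libraries and 49.4, 90.2, 50.4 and 50.5 CPM in the IFN-β libraries at 2 h, and at 11.8, 16.9, 16.8 and 18.8 CPM and 842, 916, 902 and 1057 CPM at 14 h. The vehicle and treated ranges overlapped at 2 h and lay far apart at 14 h, and the response went from 0.67 ± 0.06 to 5.83 ± 0.06 (difference 5.16 ± 0.09, adjusted p = 3.3e-32). H2-K1, the other classical heavy chain, went from 0.20 ± 0.06 to 4.96 ± 0.05 (difference 4.76 ± 0.08, adjusted p = 3.3e-32). The light chain gene B2m went from 1.43 ± 0.04 to 4.51 ± 0.05 (difference 3.08 ± 0.06, adjusted p = 3.0e-29), and the nonclassical H2-T23 from 2.00 ± 0.17 to 7.09 ± 0.10 (difference 5.10 ± 0.29, adjusted p = 3.9e-17). Of the loading machinery the peptide transporter gene Tap1 went from 3.32 ± 0.06 to 4.64 ± 0.06 (difference 1.32 ± 0.09, adjusted p = 8.7e-15), and tapasin (Tapbp) from 0.70 ± 0.07 to 3.84 ± 0.06 (difference 3.14 ± 0.10, adjusted p = 3.7e-25). Nlrc5 lay at 0.280 to 1.06 CPM with vehicle and 10.6 to 16.4 CPM with IFN-β at 2 h, and at 0.0998 to 0.570 CPM and 74.3 to 87.3 CPM at 14 h. Nlrc5 drives transcription of MHC class I genes, and its response grew by 3.45 ± 0.55, adjusted p = 1.7e-06. The immunoproteasome subunit gene Psmb8 went from 4.52 ± 0.12 to 9.10 ± 0.11, with an exon on the opposite strand, and Psmb9 from 3.52 ± 0.14 to 6.20 ± 0.09 (difference 2.68 ± 0.27, adjusted p = 1.1e-10). The H2 genes resemble each other closely, and how the counting split their shared reads is not known.

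Among all genes growing upwards the 5 with the largest difference, at a mean of at least 50 counts and at least 10 counts in each group, were C4b, Ifi27l2a, Islr, H2-Q1 and Lgals9. C4b stood at 3.83, 34.6, 8.61 and 2.89 CPM in the vehicle libraries and 5.94, 35.0, 10.5 and 4.98 CPM in the IFN-β libraries at 2 h, and at 0.897, 0.299, 1.98 and 1.14 CPM and 132, 130, 146 and 153 CPM at 14 h. This complement component overlapped between treatments at 2 h, with replicate 3 highest in both, and the treated libraries at 14 h lay far above all others (difference 6.82 ± 0.23, adjusted p = 3.7e-21). Ifi27l2a stood at 0.213, 0.840, 0 and 0.413 CPM in the vehicle libraries and 0.379, 0.818, 1.12 and 1.16 CPM in the IFN-β libraries at 2 h, and at 0.538, 0.599, 0.619 and 0.0950 CPM and 86.7, 108, 114 and 123 CPM at 14 h. Ifi27l2a is an ISG of mitochondrial membranes, and its difference was 6.65 ± 0.89, adjusted p = 1.5e-07. Islr stood at 2.13, 19.4, 6.36 and 3.31 CPM in the vehicle libraries and 3.67, 15.7, 4.47 and 2.65 CPM in the IFN-β libraries at 2 h, and at 0.359, 0.399, 0.495 and 0.475 CPM and 28.9, 25.2, 37.2 and 42.3 CPM at 14 h. Islr, a secreted protein with leucine-rich repeats, overlapped at 2 h and reached a difference of 6.41 ± 0.29, adjusted p = 3.7e-20. H2-Q1 lay at 1.96 to 3.71 CPM with vehicle and 3.32 to 7.56 CPM with IFN-β at 2 h, and at 0.499 to 1.49 CPM and 59.1 to 74.7 CPM at 14 h, a difference of 5.31 ± 0.37, adjusted p = 2.4e-12. Lgals9 lay at 0.319 to 0.551 CPM with vehicle and 14.3 to 33.9 CPM with IFN-β at 2 h, and at 0.285 to 0.743 CPM and 799 to 910 CPM at 14 h. This galectin was separated between treatments at both times and grew by 5.30 ± 0.58, adjusted p = 8.2e-10.

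**Figure D3:**
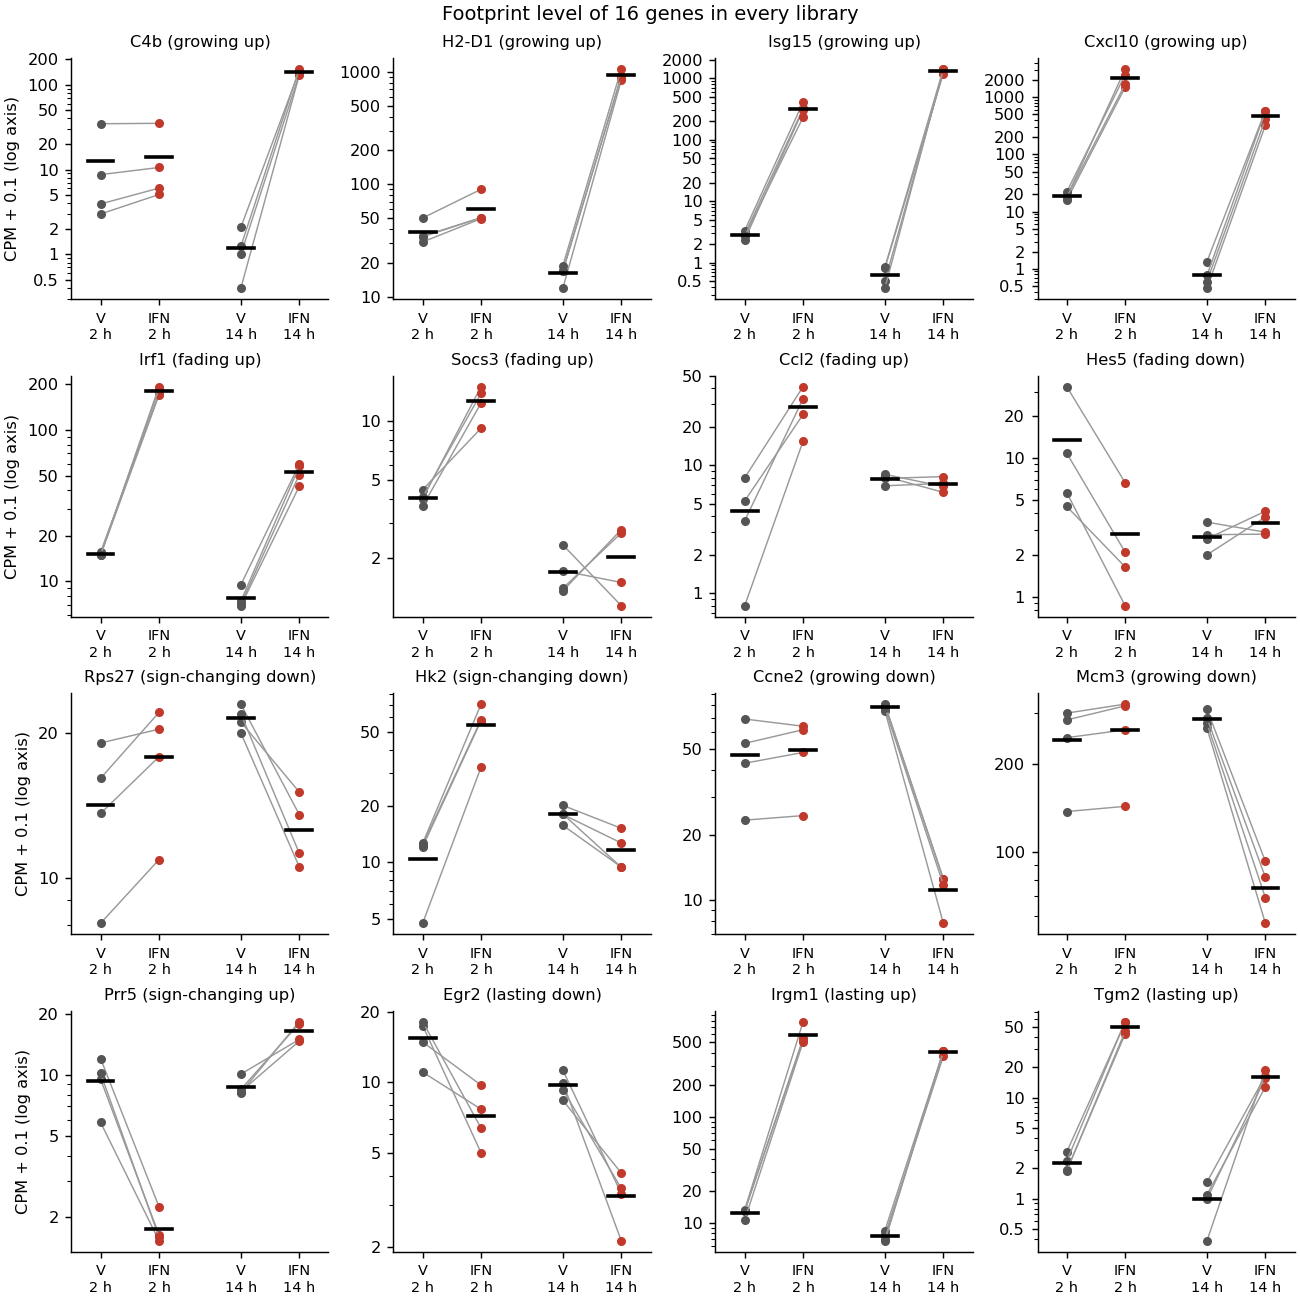
The y axes give CPM plus 0.1 on a log axis in every library for 16 genes, with vehicle (V, grey) and IFN-β (red) at 2 h and 14 h. Lines join the culture pairs and bars mark the group means. Isg15 rises further with IFN-β at 14 h than at 2 h, Irf1 and Socs3 respond less at 14 h, Rps27 and Hk2 are higher with IFN-β in the 2 h pairs and lower in the 14 h pairs, and Ccne2 and Mcm3 part only at 14 h.

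Secretory chaperones formed a late and modest rise. Of 18 ER chaperone genes 12 were growing upwards, 2 sign-changing upwards and 1 fading, with medians of -0.02 at 2 h and 0.40 at 14 h. Without the block none was fading or sign-changing. Calr went from -0.04 ± 0.03 to 0.66 ± 0.03 (difference 0.69 ± 0.05, adjusted p = 1.9e-14) and Hsp90b1 from -0.04 ± 0.03 to 0.66 ± 0.03 (difference 0.69 ± 0.05, adjusted p = 4.4e-15). Both are lumenal chaperones, and Calr also takes part in MHC class I loading. Xbp1, a transcription factor of the unfolded protein response, faded from 0.60 ± 0.09 to 0.08 ± 0.08 (difference -0.51 ± 0.12, adjusted p = 0.00041). Constitutive proteasome subunits grew upwards in 13 of 31, by little (medians 0.04 at 2 h and 0.15 at 14 h), and 15 were unsorted. Without the block 2 of the 31 were growing. Psmb4 went from 0.10 ± 0.04 to 0.31 ± 0.04 (difference 0.21 ± 0.05, adjusted p = 0.0012).

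Lasting responses upwards were led, by their mean over the 2 times and with the same count rule, by Irgm1, described above, Isg20, Serpina3n, Tgm2 and Trim21. Isg20 stood at 0.532, 0.420, 0.133 and 0.413 CPM in the vehicle libraries and 7.83, 9.40, 9.49 and 6.97 CPM in the IFN-β libraries at 2 h, and at 0.897, 0.399, 0.495 and 0.190 CPM and 21.2, 22.9, 29.9 and 25.6 CPM at 14 h. This RNA exonuclease was separated between treatments at both times, and its responses of 4.40 ± 0.29 at 2 h and 5.78 ± 0.21 at 14 h differed by 1.39 ± 0.61, adjusted p = 0.051, with a 95% interval from 0.16 to 2.62. Serpina3n stood at 4.25, 19.2, 4.11 and 2.48 CPM in the vehicle libraries and 125, 386, 140 and 146 CPM in the IFN-β libraries at 2 h, and at 2.15, 1.20, 2.23 and 1.24 CPM and 24.2, 25.5, 33.8 and 30.8 CPM at 14 h. Serpina3n, a serine protease inhibitor known from reactive astrocytes, had responses of 4.77 ± 0.12 at 2 h and 4.15 ± 0.23 at 14 h (difference -0.62 ± 0.39, adjusted p = 0.20). Tgm2 stood at 1.81, 2.80, 2.25 and 1.79 CPM in the vehicle libraries and 42.3, 55.2, 56.0 and 45.0 CPM in the IFN-β libraries at 2 h, and at 0.897, 0.998, 1.36 and 0.285 CPM and 15.4, 12.6, 16.3 and 18.6 CPM at 14 h. The transglutaminase gene Tgm2 was lower in every library at 14 h than with the same treatment at 2 h, and its responses of 4.51 ± 0.14 at 2 h and 4.19 ± 0.21 at 14 h differed by -0.33 ± 0.38, adjusted p = 0.48. It overlaps an exon on the opposite strand. Trim21 lay at 3.58 to 4.47 CPM with vehicle and 52.8 to 74.2 CPM with IFN-β at 2 h, and at 2.87 to 5.13 CPM and 47.0 to 60.3 CPM at 14 h, and the responses of this cytosolic antibody receptor differed by -0.18 ± 0.18, adjusted p = 0.42. Without the pair of replicate 3 at 2 h the differences of Irgm1 (0.34, adjusted p = 0.018) and Serpina3n (-1.05, adjusted p = 0.0019) were called, and that of Isg20 was called without replicate 5 at 2 h (1.71, adjusted p = 0.020) or replicate 1 at 14 h (1.76, adjusted p = 0.018). Cd274, or PD-L1, an inhibitory ligand for T cells, also lasted, at 6.62 ± 0.19 and 5.20 ± 0.30 (difference -1.42 ± 0.72, adjusted p = 0.10), from treated levels of 29.7 to 55.8 CPM at 2 h and 5.71 to 10.1 CPM at 14 h.

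Lasting responses downwards held immediate early genes. Egr2 stood at 10.9, 17.4, 18.0 and 14.8 CPM in the vehicle libraries and 7.58, 4.91, 6.28 and 9.63 CPM in the IFN-β libraries at 2 h, and at 9.87, 8.28, 11.2 and 9.22 CPM and 2.02, 4.01, 3.26 and 3.44 CPM at 14 h. Egr2, a zinc finger factor induced by growth signals, was lower with IFN-β in every pair, with responses of -1.06 ± 0.17 at 2 h and -1.50 ± 0.21 at 14 h (difference -0.44 ± 0.28, adjusted p = 0.20). Without replicate 3 at 2 h this difference was called (-0.61, adjusted p = 0.044). Egr1 responded with -0.99 ± 0.19 at 2 h and -0.98 ± 0.19 at 14 h (difference 0.02 ± 0.28, adjusted p = 0.97) and Arc with -1.23 ± 0.13 at 2 h and -1.31 ± 0.08 at 14 h (difference -0.08 ± 0.16, adjusted p = 0.70). Xrcc2 lay at 10.3 to 12.1 CPM with vehicle and 5.43 to 7.97 CPM with IFN-β at 2 h, and at 8.97 to 14.0 CPM and 4.74 to 5.87 CPM at 14 h, and this recombination gene had a difference of -0.38 ± 0.21, adjusted p = 0.12. Id4, a factor that holds NSCs in quiescence, responded with -1.07 ± 0.35 at 2 h and -1.59 ± 0.50 at 14 h (difference -0.53 ± 0.63, adjusted p = 0.50).

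Fading responses upwards were led by Rnf152, Aldh1a3, Ccl2, Tm4sf1 and ENSMUSG00000029333, for which no symbol was given in the annotation used. Ccl2 stood at 7.87, 0.700, 5.17 and 3.58 CPM in the vehicle libraries and 41.1, 15.3, 24.9 and 33.0 CPM in the IFN-β libraries at 2 h, and at 8.07, 8.38, 6.81 and 7.79 CPM and 6.05, 6.73, 7.12 and 8.05 CPM at 14 h. Ccl2 attracts monocytes. Its treated libraries lay above all vehicle libraries at 2 h, and at 14 h the groups overlapped, so that the response went from 2.70 ± 0.16 to -0.11 ± 0.18 (difference -2.81 ± 0.24, adjusted p = 2.1e-10). Aldh1a3 stood at 12.4, 4.90, 13.9 and 13.2 CPM in the vehicle libraries and 96.2, 38.2, 96.2 and 98.1 CPM in the IFN-β libraries at 2 h, and at 2.87, 2.29, 3.71 and 3.99 CPM and 3.36, 3.44, 3.71 and 3.33 CPM at 14 h. This enzyme of retinoic acid synthesis faded from 2.89 ± 0.09 to 0.07 ± 0.20 (difference -2.81 ± 0.22, adjusted p = 2.3e-13), with no overlap at 2 h and overlap at 14 h. Rnf152 lay at 1.54 to 3.18 CPM with vehicle and 23.7 to 29.5 CPM with IFN-β at 2 h, and at 2.51 to 5.70 CPM and 5.04 to 6.05 CPM at 14 h, a difference of -2.82 ± 0.26, adjusted p = 1.6e-11 for this lysosomal ubiquitin ligase. Tm4sf1 lay at 8.68 to 28.0 CPM with vehicle and 54.0 to 150 CPM with IFN-β at 2 h, and at 6.59 to 11.6 CPM and 7.73 to 10.7 CPM at 14 h, a difference of -2.59 ± 0.19, adjusted p = 8.6e-12 for this membrane protein of the tetraspanin-like family. ENSMUSG00000029333 went from 3.84 ± 0.15 to 1.29 ± 0.32 (difference -2.55 ± 0.41, adjusted p = 5.9e-06).

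Of 15 chemokine and cytokine genes 7 were tested. Besides Cxcl10 and Ccl2, Csf1 and Cx3cl1 grew, Ccl7 faded, Tnfsf10 lasted and Lif was unsorted. Ccl7, which also attracts monocytes, lay at 0.319, 0.700, 0.530 and 0.413 CPM with vehicle and 6.70, 7.56, 6.14 and 7.14 CPM with IFN-β at 2 h, and at 0.179, 0.499, 0.371 and 0.475 and 0, 1.58, 0.889 and 0.859 CPM at 14 h (difference -2.64 ± 0.63, adjusted p = 0.00062). Csf1, a growth factor for microglia, went from 1.90 ± 0.06 to 2.22 ± 0.07 (difference 0.32 ± 0.10, adjusted p = 0.0056), and the membrane-bound chemokine Cx3cl1 from -0.17 ± 0.11 to 0.60 ± 0.11 (difference 0.77 ± 0.15, adjusted p = 0.0037). Tnfsf10, or TRAIL, a ligand that triggers apoptosis, had 3 counts or fewer in a group and read 4.30, 5.32, 2.65 and 3.15 CPM with IFN-β at 2 h and 8.40, 13.0, 17.2 and 15.7 CPM at 14 h. Lif responded with 0.27 ± 0.32 at 2 h and 0.60 ± 0.30 at 14 h. Of 12 NF-κB factors and inhibitors Rela and Nfkbiz faded, Relb and Nfkbia lasted, Nfkb2 and Tnip1 grew, Nfkb1 changed sign to the lower side and 5 were unsorted. Without the block 1 grew and none changed sign. The inhibitor gene Nfkbia responded with 0.29 ± 0.08 at 2 h and 0.31 ± 0.09 at 14 h.

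Immediate early genes went several ways. Of 25 tested, 6 faded upwards and 4 downwards, 4 lasted downwards and 1 upwards, 2 grew upwards and 1 downwards, 2 changed sign upwards and 1 downwards, and 4 were unsorted (medians -0.22 at 2 h and -0.07 at 14 h). Without the block none faded downwards or changed sign upwards. Those fading upwards were Fosl2, Junb, Atf3, Zfp36, Klf4 and Klf6. Zfp36 lay at 3.94 to 6.23 CPM with vehicle and 19.8 to 32.9 CPM with IFN-β at 2 h, and at 7.43 to 9.69 CPM and 11.0 to 14.9 CPM at 14 h. Zfp36, or tristetraprolin, destabilises cytokine mRNAs, and its response went from 2.47 ± 0.14 to 0.55 ± 0.14 (difference -1.92 ± 0.21, adjusted p = 1.0e-09). Atf3, a stress-induced repressor, went from 2.56 ± 0.16 to 0.64 ± 0.25 (difference -1.91 ± 0.31, adjusted p = 2.4e-06), and Fosl2, a part of AP-1, from 1.76 ± 0.12 to -0.07 ± 0.17 (difference -1.83 ± 0.21, adjusted p = 3.5e-08). Those fading downwards were Nr4a1, Klf10, Dusp6 and Dusp1. Nr4a1, an orphan nuclear receptor, went from -2.48 ± 0.21 to -1.18 ± 0.17 (difference 1.30 ± 0.29, adjusted p = 0.00034), and Dusp6, a phosphatase of Erk, from -0.93 ± 0.14 to -0.39 ± 0.12 (difference 0.54 ± 0.18, adjusted p = 0.042). Jun, the central AP-1 subunit, changed sign from 0.69 ± 0.05 to -0.45 ± 0.05 (difference -1.14 ± 0.07, adjusted p = 1.4e-15), and Ier2 grew downwards from -0.31 ± 0.10 to -1.05 ± 0.11 (difference -0.74 ± 0.15, adjusted p = 7.2e-05).

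Fading responses downwards were led by Mycl, Gsx1, Dok7, G0s2 and Ackr3. Mycl stood at 10.1, 25.6, 16.7 and 14.2 CPM in the vehicle libraries and 1.64, 5.72, 4.61 and 2.99 CPM in the IFN-β libraries at 2 h, and at 5.56, 6.19, 5.95 and 5.42 CPM and 4.70, 4.30, 5.78 and 6.01 CPM at 14 h. The treated libraries of this Myc family member lay below every vehicle library at 2 h and overlapped with them at 14 h, and the response went from -2.16 ± 0.15 to -0.13 ± 0.17 (difference 2.03 ± 0.24, adjusted p = 3.8e-09). Gsx1 stood at 43.9, 12.7, 40.8 and 41.9 CPM in the vehicle libraries and 15.8, 2.66, 13.0 and 10.8 CPM in the IFN-β libraries at 2 h, and at 20.1, 18.3, 17.0 and 23 CPM and 18.8, 18.9, 21.6 and 19.3 CPM at 14 h. Gsx1, a homeobox factor of ventral progenitors, overlapped between treatments at both times although the treated library was the lower in every pair at 2 h, and its difference was 1.71 ± 0.15, adjusted p = 7.8e-12. Ackr3 lay at 29.1 to 144 CPM with vehicle and 7.08 to 40.9 CPM with IFN-β at 2 h, and at 7.22 to 8.42 CPM and 6.88 to 8.01 CPM at 14 h. This scavenging receptor for Cxcl12 had a difference of 1.60 ± 0.18, adjusted p = 1.3e-09, and its groups overlapped at both times. Without the pair as a block the difference of Ackr3 was 1.66 and not called (adjusted p = 0.11). Dok7, an adaptor of receptor kinases, and G0s2, an inhibitor of fat breakdown, had differences of 1.69 ± 0.28 and 1.63 ± 0.22 (adjusted p = 5.0e-06 and 7.4e-08).

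Some genes of stem cell identity were lower at 2 h. Over all genes tested 4.13% faded downwards and 6.18% changed sign upwards. Of 27 stem cell and glial markers 5 faded downwards (Sox9, Hes5, Notch2, Nr2e1 and Fgfr3), 4 changed sign upwards (Egfr, Hes1, Msi1 and Aldh1l1), 3 lasted downwards, 4 grew upwards, 3 grew downwards and 8 stood elsewhere (medians -0.10 at 2 h and -0.04 at 14 h). Without the block 2 of the 27 were fading downwards and none was sign-changing. Hes5 stood at 5.53, 32.7, 4.37 and 10.8 CPM in the vehicle libraries and 0.758, 6.54, 1.54 and 1.99 CPM in the IFN-β libraries at 2 h, and at 2.51, 2.69, 3.34 and 1.90 CPM and 4.03, 2.72, 2.82 and 3.65 CPM at 14 h. Hes5 is a target of Notch that keeps NSCs undifferentiated. The treated library was the lower in every pair at 2 h, with vehicle levels that ranged widely, and at 14 h the groups overlapped. The response went from -2.29 ± 0.19 to 0.33 ± 0.24 (difference 2.62 ± 0.32, adjusted p = 9.2e-09), and the gene overlaps an exon on the opposite strand. Nr2e1, or Tlx, an orphan receptor required for NSC maintenance, lay at 19.6 to 29.9 CPM with vehicle and 9.22 to 18.0 CPM with IFN-β at 2 h, and at 12.6 to 17.0 and 7.73 to 11.6 CPM at 14 h, with responses of -0.86 ± 0.11 at 2 h and -0.45 ± 0.12 at 14 h (difference 0.42 ± 0.17, adjusted p = 0.034). Egfr, which marks activated NSCs, changed sign from -0.55 ± 0.04 to 0.10 ± 0.04 (difference 0.65 ± 0.05, adjusted p = 6.9e-13), and Hes1 from -0.54 ± 0.07 to 0.24 ± 0.06 (difference 0.78 ± 0.09, adjusted p = 1.2e-09). Prom1 grew downwards from 0.30 ± 0.23 to -1.11 ± 0.29 (difference -1.41 ± 0.37, adjusted p = 0.0017). Sox2 and Nes were unsorted, with responses of -0.04 ± 0.04 at 2 h and -0.04 ± 0.05 at 14 h and of 0.07 ± 0.04 at 2 h and 0.09 ± 0.04 at 14 h. Gfap responded with 2.68 ± 0.37 at 2 h, stood at 0.179, 0.200, 0.124 and 0.285 CPM with vehicle and 2.02, 1.15, 1.19 and 0.966 CPM with IFN-β at 14 h, and its difference was not called (adjusted p = 0.99).

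Lineage genes were lower at 2 h in part. Of 7 tested oligodendrocyte lineage genes Olig1, Olig2 and Cnp changed sign upwards, Cspg4 and Nkx2-2 faded downwards, Pdgfra grew downwards and 1 was unsorted (medians -0.46 at 2 h and 0.06 at 14 h). Without the block none of the 7 was sign-changing and 3 were fading downwards. Olig2 stood at 714, 615, 754 and 818 CPM in the vehicle libraries and 377, 326, 385 and 379 CPM in the IFN-β libraries at 2 h, and at 771, 824, 829 and 876 CPM and 843, 870, 858 and 1018 CPM at 14 h. Olig2, a factor shared by oligodendrocyte precursors and transit-amplifying cells, went from -0.98 ± 0.04 to 0.12 ± 0.04 (difference 1.10 ± 0.05, adjusted p = 4.4e-19). Of 16 tested neurogenic and neuroblast genes 2 faded upwards, 2 faded downwards, 2 changed sign downwards and 6 were unsorted (medians 0.06 at 2 h and 0.09 at 14 h), and without the block 1 faded in each direction and 1 changed sign downwards. Sox11 went from 1.00 ± 0.04 to -0.45 ± 0.05 (difference -1.44 ± 0.07, adjusted p = 4.4e-20) and Insm1 from -1.62 ± 0.15 to -0.09 ± 0.11 (difference 1.54 ± 0.19, adjusted p = 4.4e-07). Among 6 tested markers of mature neurons Nefl changed sign from 1.36 ± 0.19 to -1.99 ± 0.27 (difference -3.35 ± 0.33, adjusted p = 5.8e-11), at 1.40 to 4.24 CPM with vehicle at 2 h and 3.84 to 5.42 CPM at 14 h, Rbfox3 and Calb2 grew downwards, Nefm faded upwards and the other two were unsorted. The summed level of the 11 neuronal markers was 24.4 to 30.5 CPM with vehicle and 32.9 to 66.5 CPM with IFN-β at 2 h, and 25.5 to 29.8 and 20.2 to 21.5 CPM at 14 h. The 15 immune markers summed to 16.2 to 35.2 and 21.1 to 41.5 CPM at 2 h, and to 38.0 to 42.6 and 42.1 to 46.7 CPM at 14 h, to which Itgam added 11.3 to 35.7 CPM. The 10 endothelial and mural markers summed to 25.6 to 37.8 and 28.2 to 57.6 CPM at 2 h and 22.8 to 31.9 and 23.5 to 29.4 CPM at 14 h, and Kdr was the one sorted of 4 tested (fading upwards). Without the block none of the 4 faded and 1 grew upwards. Of 3 immune markers tested, P2ry12 grew upwards, Itgam grew downwards and Cd68 was unsorted.

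Sign-changing responses upwards, lower at 2 h and higher at 14 h, were led by Prr5, Card10, Klf15, Slc2a10 and Olfm1. Prr5 stood at 11.9, 5.74, 9.40 and 10.1 CPM in the vehicle libraries and 2.15, 1.43, 1.54 and 1.49 CPM in the IFN-β libraries at 2 h, and at 8.07, 8.38, 8.17 and 9.98 CPM and 18.1, 17.8, 14.5 and 14.8 CPM at 14 h. Prr5 is a subunit of the mTOR complex that phosphorylates Akt. Its treated libraries lay below all vehicle libraries at 2 h and above them at 14 h, and the response went from -2.49 ± 0.20 to 0.87 ± 0.12 (difference 3.37 ± 0.23, adjusted p = 1.1e-14). Klf15 stood at 15.2, 34.6, 22 and 19.0 CPM in the vehicle libraries and 3.67, 14.1, 7.96 and 3.48 CPM in the IFN-β libraries at 2 h, and at 5.38, 4.99, 6.07 and 8.08 CPM and 15.1, 14.8, 16.6 and 14.3 CPM at 14 h. This Krüppel-like factor was separated in the same way, with a difference of 2.96 ± 0.21, adjusted p = 6.0e-13. Card10 stood at 12.1, 26.0, 17.0 and 15.0 CPM in the vehicle libraries and 10.1, 15.3, 10.3 and 7.63 CPM in the IFN-β libraries at 2 h, and at 4.67, 2.69, 3.22 and 5.70 CPM and 29.6, 22.8, 25.2 and 26.1 CPM at 14 h. Card10, a scaffold upstream of NF-κB, overlapped at 2 h, where vehicle replicates ranged widely and each treated library lay below its partner, and its difference was 3.31 ± 0.19, adjusted p = 5.9e-17. The sugar transporter gene Slc2a10 went from -1.86 ± 0.18 to 1.04 ± 0.10 (difference 2.90 ± 0.21, adjusted p = 2.6e-14) and Olfm1, an olfactomedin, from -0.17 ± 0.06 to 2.58 ± 0.05 (difference 2.75 ± 0.07, adjusted p = 1.5e-26). Genes of this class had a median coding length of 1717 bases, against 1452 over all genes tested and 1229 in the class that changed sign downwards.

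The opposite order, higher at 2 h and lower at 14 h, was led by Hk2, Hs3st3a1, Chrna7, Mtfr2 and Adamts1. Hk2 stood at 12.0, 4.62, 12.3 and 12.5 CPM in the vehicle libraries and 57.4, 32.3, 58.1 and 70.4 CPM in the IFN-β libraries at 2 h, and at 20.1, 18.1, 18.0 and 15.7 CPM and 15.1, 9.31, 12.6 and 9.34 CPM at 14 h. Hexokinase 2 starts glycolysis. Its treated libraries lay above every vehicle library at 2 h and below every vehicle library at 14 h, and the response turned from 2.39 ± 0.10 to -0.68 ± 0.11 (difference -3.06 ± 0.15, adjusted p = 3.8e-19). Adamts1 stood at 97.4, 109, 112 and 102 CPM in the vehicle libraries and 301, 294, 269 and 337 CPM in the IFN-β libraries at 2 h, and at 63.3, 59.1, 59.6 and 56.7 CPM and 29.6, 34.8, 27.6 and 27.8 CPM at 14 h. This matrix protease turned from 1.51 ± 0.06 to -0.98 ± 0.08 (difference -2.49 ± 0.10, adjusted p = 9.8e-17), with no overlap at either time. Chrna7 lay at 5.74 to 7.70 CPM with vehicle and 22.5 to 28.2 CPM with IFN-β at 2 h, and at 5.33 to 6.29 CPM and 1.68 to 3.22 CPM at 14 h. The α7 nicotinic receptor subunit had a difference of -2.93 ± 0.21, adjusted p = 4.2e-14. Hs3st3a1, an enzyme that modifies heparan sulfate, and Mtfr2, a regulator of mitochondrial fission, had differences of -2.99 ± 0.25 and -2.81 ± 0.22 (adjusted p = 1.9e-12 and 3.3e-13), and Hs3st3a1 overlaps an exon on the opposite strand.

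Ribosomal protein genes formed a large block of this class, with a small change in each. Of 77 cytosolic ribosomal protein genes 67 changed sign downwards, against 5.05% of all genes tested, 9 grew downwards and Rpl27 faded. All 77 had a positive response at 2 h and a negative one at 14 h, with medians of 0.27 at 2 h and -0.47 at 14 h. The median over the list was 0.21 to 0.37 in the 4 pairs at 2 h and -0.51 to -0.43 in the 4 pairs at 14 h, so that no pair of one time reached into the range of the other. At 2 h the shift lay within pairs, since the treated libraries overlapped with the vehicle libraries in all 77 genes. At 14 h this overlap was no longer seen in every gene. No share over all genes tested is given beside this, so it describes the list alone. Without the pair as a block the medians were 0.27 and -0.48 and 18 of the 77 were called at 14 h, but none at 2 h. None therefore counted as sign-changing and 13 as growing downwards. Among all 12508 genes that fit called 1522 at 2 h and 4675 at 14 h, with 1408 growing downwards. Between the times the vehicle level of the list differed by a median of 0.51 and the treated level by one of -0.21, 14 h minus 2 h, on log2 of CPM plus 0.5.

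Rps27 stood at 18.9, 7.97, 13.5 and 16 CPM in the vehicle libraries and 20.2, 10.8, 17.7 and 21.9 CPM in the IFN-β libraries at 2 h, and at 22.8, 19.9, 20.9 and 21.8 CPM and 13.4, 10.5, 15.0 and 11.2 CPM at 14 h. Each treated library at 2 h was above its own partner and each at 14 h below it, with the pair of replicate 3 lowest at 2 h, and the response turned from 0.32 ± 0.11 to -0.79 ± 0.11 (difference -1.10 ± 0.15, adjusted p = 1.4e-07). Rps6 stood at 54.8, 19.7, 41.1 and 49.8 CPM in the vehicle libraries and 62.4, 31.3, 47.5 and 61.7 CPM in the IFN-β libraries at 2 h, and at 87.0, 67.8, 70.3 and 68.1 CPM and 46.0, 42.3, 49.5 and 39.3 CPM at 14 h. Rps6, a small subunit protein that S6 kinase phosphorylates, turned from 0.29 ± 0.07 to -0.71 ± 0.07 (difference -1.0 ± 0.10, adjusted p = 5.9e-11). Rpl14 turned from 0.31 ± 0.04 to -0.59 ± 0.04 (difference -0.90 ± 0.06, adjusted p = 1.7e-14), and Rps15a from 0.34 ± 0.06 to -0.54 ± 0.06 (difference -0.88 ± 0.08, adjusted p = 3.2e-11). Rpl27 stood at 0.20 ± 0.05 at 2 h and -0.09 ± 0.05 at 14 h. Ribosomal protein genes have many near-identical processed copies, and how reads shared with them were counted is not known.

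Other TOP-mRNAs turned likewise. Of 23 tested translation factors and related genes 16 changed sign downwards, 5 grew downwards and 2 faded upwards (medians 0.20 at 2 h and -0.32 at 14 h), and without the block none changed sign. Pabpc1, the poly(A)-binding protein, turned from 0.62 ± 0.12 to -0.45 ± 0.11 (difference -1.08 ± 0.16, adjusted p = 0.0011), Eef1b2, an exchange factor of elongation, from 0.40 ± 0.04 to -0.77 ± 0.04 (difference -1.17 ± 0.06, adjusted p = 2.4e-19) and Eef2 from 0.34 ± 0.05 to -0.29 ± 0.05 (difference -0.64 ± 0.07, adjusted p = 1.4e-07). Of the 64 TOP-mRNAs that the study lists, 54 changed sign downwards and 9 grew downwards, and Rpl41 was unsorted (medians 0.26 at 2 h and -0.45 at 14 h). These lists share members, so the counts are not separate from those given above. Rpl41 is not among the 77 ribosomal protein genes counted there. The study defines such mRNAs by their sequence, with a C next to the cap and pyrimidines after it. Without the block none of the 64 changed sign. A pyrimidine run at the annotated start, as in the sequences of Rps27, Rps6, Rpl14 and Rps15a above, was found in 20.9% of the windows of ribosomal protein genes, 5.02% of those of the class that changed sign downwards, 2.30% of all tested genes and 2.51% of all 32851 promoters. The run is sought at the annotated start alone, so a start placed a few bases away is missed.

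**Figure D4:**
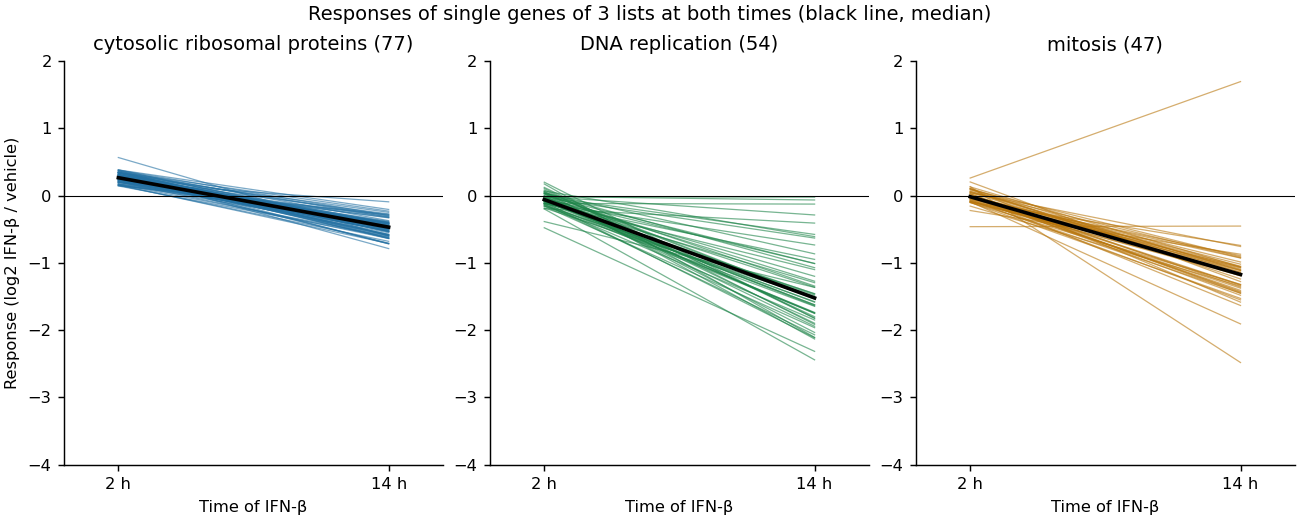
The y axis gives the response, as log2 of IFN-β over vehicle, of every single gene at 2 h and 14 h for 77 ribosomal protein genes, 54 DNA replication genes and 47 mitosis genes, with the median as a black line. The ribosomal protein genes cross from above to below 0 (median 0.27 to -0.47), while the replication and mitosis genes start near 0 and end at medians of -1.52 and -1.17, with Pttg1 rising.

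The cell cycle fell late. Of 54 DNA replication genes 48 were growing downwards, against 17.1% of all genes, Clspn and Mcm4 changed sign downwards, Orc5 lasted and Orc3, Orc4 and Rfc1 were unsorted. None changed sign without the block, with total counts alone or with DESeq2, and 49 to 50 grew downwards. The medians were -0.06 at 2 h and -1.52 at 14 h, and the pair medians -0.09 to -0.03 at 2 h and -1.52 to -1.46 at 14 h. Mcm3 stood at 300, 137, 247 and 284 CPM in the vehicle libraries and 323, 143, 263 and 318 CPM in the IFN-β libraries at 2 h, and at 267, 277, 310 and 289 CPM and 56.4, 69.2, 92.3 and 81.4 CPM at 14 h. Mcm3 is a subunit of the replicative helicase. The pair of replicate 3 was low with either treatment at 2 h, no effect of treatment was called there, and at 14 h every treated library lay below every vehicle library. The response went from 0.11 ± 0.05 to -1.91 ± 0.05 (difference -2.02 ± 0.07, adjusted p = 1.5e-22). Cdc6, which loads the helicase at origins, went from -0.20 ± 0.10 to -2.44 ± 0.12 (difference -2.24 ± 0.16, adjusted p = 6.3e-14). Pole2, of the leading-strand polymerase, went from 0.20 ± 0.09 to -1.82 ± 0.11 (difference -2.02 ± 0.15, adjusted p = 2.7e-14), and Rrm2, of ribonucleotide reductase, from -0.10 ± 0.04 to -2.11 ± 0.05 (difference -2.02 ± 0.06, adjusted p = 5.7e-25). Mcm6, of the same helicase, went from -0.01 ± 0.05 to -0.29 ± 0.05 (difference -0.27 ± 0.07, adjusted p = 0.00091). The origin recognition genes divided, with Orc1 at -2.31 ± 0.18 at 14 h and Orc4 at -0.02 ± 0.06.

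Of 47 mitosis genes 42 grew downwards and Top2a, Ube2c and Cenpe changed sign downwards, with medians of -0.02 at 2 h and -1.17 at 14 h. Pttg1 grew upwards and Cdc25b lasted. Without the block none changed sign and 45 grew downwards. Kif11 stood at 210, 173, 180 and 193 CPM in the vehicle libraries and 200, 164, 177 and 210 CPM in the IFN-β libraries at 2 h, and at 229, 240, 254 and 207 CPM and 65.8, 73.2, 81.5 and 75.3 CPM at 14 h. The treated and vehicle libraries of this spindle motor overlapped at 2 h and parted at 14 h, with responses of -0.01 ± 0.05 at 2 h and -1.63 ± 0.05 at 14 h (difference -1.62 ± 0.07, adjusted p = 8.6e-21). Mybl2, which activates cell cycle genes with the MuvB complex, had the largest difference of the list at -2.62 ± 0.16, adjusted p = 3.7e-16. Cdk1, the kinase of mitotic entry, went from 0.03 ± 0.04 to -1.44 ± 0.05 (difference -1.46 ± 0.06, adjusted p = 7.2e-21), and Mki67 from 0.07 ± 0.04 to -1.09 ± 0.04 (difference -1.16 ± 0.06, adjusted p = 3.1e-18). Pttg1 stood at 45.9, 44.4, 42.8 and 47.4 CPM in the vehicle libraries and 53.6, 63.0, 50.8 and 50.3 CPM in the IFN-β libraries at 2 h, and at 42.7, 42.7, 48.7 and 47.3 CPM and 139, 149, 149 and 150 CPM at 14 h. Pttg1 encodes securin, which holds separase until anaphase, and its response went from 0.26 ± 0.07 to 1.70 ± 0.06 (difference 1.43 ± 0.09, adjusted p = 2.9e-16), opposite in sign to the median of the list.

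Of 24 genes of the passage from G1 to S, 13 grew downwards, 2 changed sign downwards, 2 grew upwards, 2 lasted upwards and 5 were unsorted (medians 0.01 at 2 h and -0.43 at 14 h). Without the block 12 grew downwards, and none changed sign or grew upwards. Ccne2 stood at 68.8, 23.4, 42.9 and 53.1 CPM in the vehicle libraries and 63.7, 24.5, 48.2 and 61.4 CPM in the IFN-β libraries at 2 h, and at 75.2, 80.6, 79.9 and 77.3 CPM and 7.73, 12.5, 12.4 and 11.7 CPM at 14 h. Cyclin E2 drives entry into S phase. Its groups overlapped at 2 h and parted at 14 h, and the response went from 0.07 ± 0.07 to -2.76 ± 0.08 (difference -2.83 ± 0.11, adjusted p = 6.6e-22). It overlaps an exon on the opposite strand, as does E2f7. The repressors E2f7 and E2f8 went to -2.40 ± 0.12 and -1.78 ± 0.10 at 14 h from 0.11 ± 0.09 and -0.74 ± 0.10, and E2f1 from -0.41 ± 0.13 to -1.14 ± 0.13 (difference -0.73 ± 0.19, adjusted p = 0.0016). Ccnd1 changed sign from 0.22 ± 0.04 to -0.21 ± 0.04 (difference -0.44 ± 0.05, adjusted p = 1.8e-08), and Ccnd2 and Ccnd3 were unsorted. The inhibitor gene Cdkn1a was unsorted, at 0.28 ± 0.07 at 2 h and 0.14 ± 0.07 at 14 h, Cdkn1b grew upwards from -0.14 ± 0.06 to 0.22 ± 0.06 (difference 0.36 ± 0.09, adjusted p = 0.00077) and Cdkn2b lasted at 0.61 ± 0.12 at 2 h and 0.56 ± 0.13 at 14 h.

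By size of the difference, the genes growing downwards were led by Lgr5, 3 replication-dependent histone H3 genes and Ccne2. Lgr5 stood at 8.29, 9.09, 7.29 and 9.79 CPM in the vehicle libraries and 5.94, 13.7, 8.24 and 8.96 CPM in the IFN-β libraries at 2 h, and at 12.6, 10.4, 12.9 and 7.13 CPM and 1.34, 0.716, 1.48 and 1.5 CPM at 14 h. Lgr5, a receptor for R-spondins, overlapped at 2 h and was lower in every treated library at 14 h, a difference of -3.03 ± 0.29, adjusted p = 9.0e-11. Hist2h3c2 lay at 123 to 168 CPM with vehicle and 96.9 to 178 CPM with IFN-β at 2 h, and at 134 to 352 CPM and 20.3 to 35.3 CPM at 14 h, a difference of -2.85 ± 0.19, adjusted p = 5.3e-06. Hist2h3b and Hist2h3c1 had differences of -2.80 ± 0.06 and -2.79 ± 0.07 (adjusted p = 6.9e-26 and 8.6e-21). These histone genes are near-identical in sequence, so the 3 values may count shared reads, and Hist2h3b overlaps an exon on the opposite strand. Of 11 Myc family genes Myc and Mxd3 grew downwards, Max and Mga upwards, Mycl and Mxi1 faded downwards, Mxd1 and Mxd4 changed sign upwards, Mnt faded upwards, Mlx lasted and Mycn was unsorted. Without the block 1 grew in each direction, 1 faded downwards, 1 changed sign upwards and none lasted. Myc went from 0.04 ± 0.05 to -0.52 ± 0.05 (difference -0.56 ± 0.07, adjusted p = 3.6e-09), and Mxd1, which opposes Myc, from -0.65 ± 0.14 to 0.92 ± 0.18 (difference 1.57 ± 0.23, adjusted p = 3.8e-07).

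Sterol synthesis genes had a lower response at 14 h. Of 23 sterol synthesis genes 13 grew downwards, 5 changed sign downwards, Dhcr7 lasted and 4 were unsorted (medians 0.00 at 2 h and -0.39 at 14 h), and without the block 5 grew downwards and none changed sign. Their treated level itself was higher at 14 h than at 2 h in 17 of the 23. From 2 h to 14 h the median change was 0.63 with vehicle and 0.19 with IFN-β, on log2 of CPM plus 0.5. Acat2 went from -0.08 ± 0.06 to -0.78 ± 0.06 (difference -0.70 ± 0.08, adjusted p = 7.1e-09) and Idi1 from 0.03 ± 0.06 to -0.58 ± 0.06 (difference -0.62 ± 0.09, adjusted p = 1.2e-05). Of 37 genes of respiratory complex I 13 grew downwards and 19 were unsorted (medians -0.02 at 2 h and -0.13 at 14 h), and 6 grew downwards without the block. Over all genes tested 17.1% grew downwards, and without the block 1408 of 12508 did. Of 34 Atf4 targets and tRNA synthetase genes 5 faded upwards, 4 changed sign downwards, 4 lasted upwards, 3 lasted downwards and 12 were unsorted (medians 0.14 at 2 h and 0.05 at 14 h). Without the block 1 faded upwards and none changed sign downwards. Atf4 itself, the factor of the integrated stress response, went from 0.82 ± 0.07 to 0.08 ± 0.05 (difference -0.74 ± 0.08, adjusted p = 1.7e-09), and Ddit4, an inhibitor of mTOR signalling, changed sign from -0.67 ± 0.06 to 0.78 ± 0.06 (difference 1.45 ± 0.09, adjusted p = 7.7e-13).

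**Figure D5:**
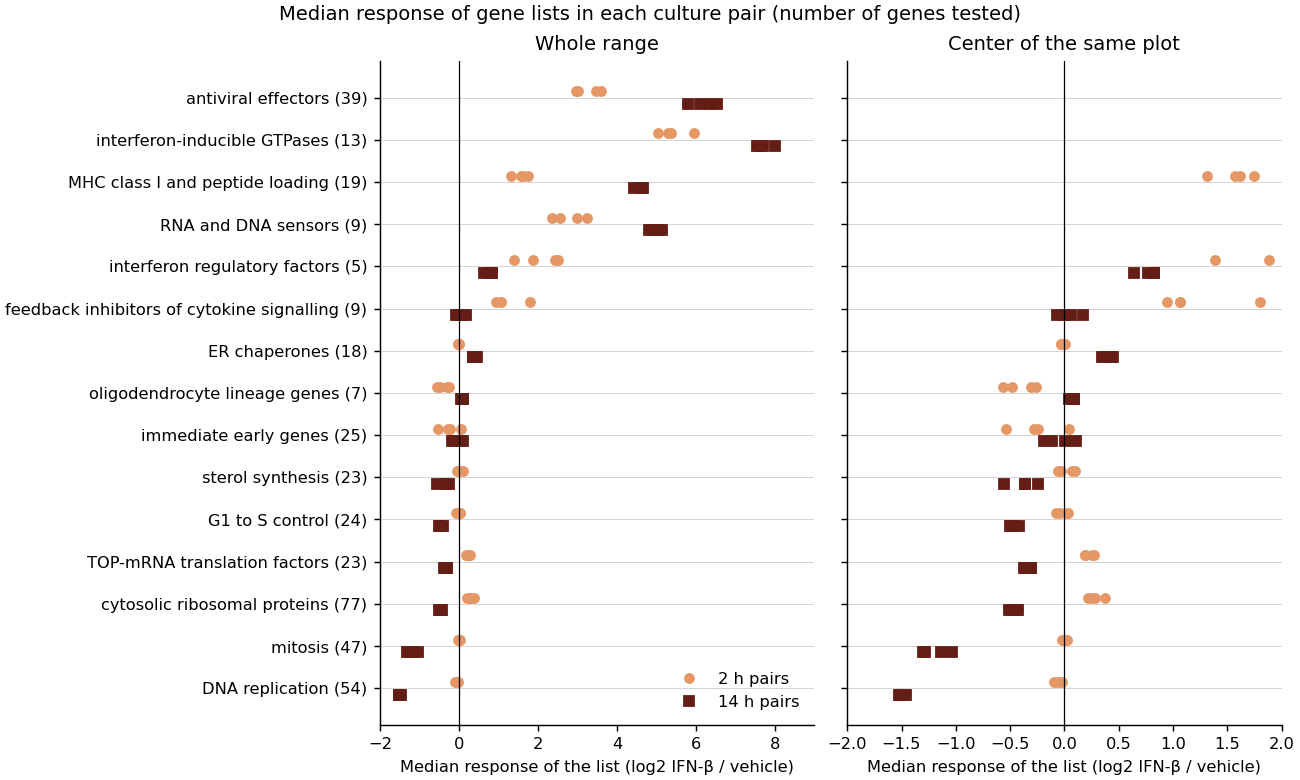
Each mark is the median response of a gene list in 1 culture pair, as log2 of IFN-β over vehicle from CPM plus 0.5, with circles for the 4 pairs at 2 h and squares for the 4 pairs at 14 h. The right panel enlarges the center. Antiviral effectors lie at 2.95 to 3.59 at 2 h and 5.81 to 6.54 at 14 h, ribosomal protein genes lie on either side of 0, and the replication and mitosis lists lie near 0 at 2 h alone.

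The share of promoters with each motif was counted by class, with matches on both strands and overlaps between different motifs allowed. The ISRE core was found in 8.77% of the windows of genes growing upwards, 14.2% of those lasting upwards, 52.4% of those of antiviral effectors, 80.0% of those of the GTPases and 27.8% of those of MHC class I genes, beside 7.00% over all genes tested and 8.56% over all promoters. Sets that were lower at 14 h held it as well, with 8.78% in the class that changed sign downwards, 19.4% in ribosomal protein genes, 15.1% in the TOP-mRNAs of the study and 15.0% in mitosis genes. A GAS was found in 10.5% of windows of genes fading upwards, 9.02% of those lasting upwards and 7.06% of those growing upwards, beside 6.73% and 8.30%. Among lists that grew it stood in 50.0% of windows of the GTPases and 21.4% of those of antiviral effectors. An E2F site stood in 5.71% of windows of genes growing downwards and 25.9% of those of replication genes, beside 2.90% and 1.56%, and a CHR in 16.2% of the class and 72.5% of the mitosis windows, beside 11.5% and 17.9%. The lists of GTPases and MHC class I genes rest on 10 and 18 windows. A match is a description of these letters in this window, and none of the shares was tested.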

How the data were processed

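Per the labels, footprints were prepared from NSC lysates by RNase I digestion and size selection, and the deposited values are raw read counts per gene over coding sequences, whole numbers without normalization. The submitters' processing notes name Trim Galore 0.4.4, Bowtie 0.12.7 and the builds mm10 and GRCm38. Per the study's methods the authors removed duplicates and counted overlaps of reads with genes, and the strand setting is not given in the sources used here. Each column was taken to a sample by its label. The total RNA tables were not used.

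Counts of the 16 libraries were fitted together in R 4.3.3 with edgeR 4.0.16 (TMM scaling, quasi-likelihood test, two-sided, Benjamini-Hochberg over 12508 genes). The model held a term for each of the 8 culture pairs and the IFN-β response at each time, and the difference of the 2 responses is the interaction of time and treatment. Genes needed at least 10 counts in at least 4 libraries. The response classes follow the calls at an adjusted p under 0.05. Libraries of a time were paired by their number, as each IFN-β library was set against the vehicle library of the same number. Their deviations from the group means correlated in every pair (0.61, 0.80, 0.32 and 0.51 at 2 h, 0.33, 0.20, 0.19 and 0.40 at 14 h), each higher than with any other number. The p-values measure the spread of the response between the culture pairs, since the pair terms take out what both libraries of a pair share. No libraries held identical values.

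The genes named first in each class are the 5 with the largest difference (for lasting responses the largest mean response) at a mean of at least 50 counts over the libraries and at least 10 counts in each group, and members of a list are named by the size of their difference, with uncalled members where the list needs them. Some of the genes this rule selects are not reported here. The classes, members and lists were chosen with earlier results of these data known. Lists are described by counts and medians, without a test. Where a group held 3 counts or fewer, levels are given in place of a fold. Symbols and positions came from GENCODE M21, which holds 22282 of the 23035 identifiers, and the others took 0.345% to 0.866% of the counts of a library. Promoters came from a RefSeq table of GRCm38.p6, and every sequence printed was checked against that genome.

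Alternatives were no pair block, total count scaling, DESeq2 1.42.0, limma-voom (limma 3.58.1), 2 other count filters, omission of genes with an exon on the opposite strand, stricter and looser thresholds, fits of each time alone, and omission of each pair. The fitting was tested on simulated data. Summaries and figures were made in Python 3.11.15.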

Additional observations from a re-analysis of the deposited data

Results flagged for a closer look

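A response far from the other 3 of its group was found in 8 of 136 groups of 4 pairs, where chance gives about 1 in 20. The values are log2 of IFN-β over vehicle from CPM plus 0.5. At 14 h they were Ccne2 (-3.20), Slc2a10 (1.19) and Olfm1 (2.39) in the pair of replicate 1, the median of the constitutive proteasome list (0.127) in the pair of replicate 2, and Klf15 (0.785) in the pair of replicate 4. At 2 h they were Xrcc2 (-1.01) in the pair of replicate 2, and Trim21 (3.99) and the median of the feedback inhibitors (1.80) in the pair of replicate 3, the pair that stood apart from the rest.

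The 14 h response differed from the 2 h response, by edgeR's interaction test, in every gene named first in a growing, fading or sign-changing class. The difference (log2, 14 h minus 2 h) was 6.82 for C4b, 6.65 for Ifi27l2a, 6.41 for Islr, 5.31 for H2-Q1 and 5.30 for Lgals9 among growing responses upwards. Downwards it was -3.03 for Lgr5, -2.85 for Hist2h3c2, -2.83 for Ccne2, -2.80 for Hist2h3b and -2.79 for Hist2h3c1. Among fading responses upwards it was -2.82 for Rnf152, -2.81 for Aldh1a3, -2.81 for Ccl2, -2.59 for Tm4sf1 and -2.55 for ENSMUSG00000029333, and downwards 2.03 for Mycl, 1.71 for Gsx1, 1.69 for Dok7, 1.63 for G0s2 and 1.60 for Ackr3. Sign changes upwards had 3.37 for Prr5, 3.31 for Card10, 2.96 for Klf15, 2.90 for Slc2a10 and 2.75 for Olfm1, and those downwards -3.06 for Hk2, -2.99 for Hs3st3a1, -2.93 for Chrna7, -2.81 for Mtfr2 and -2.49 for Adamts1. These genes were chosen by that size, so the values are descriptions.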

How the results depend on the processing

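Lists were recounted in the fits with no block, other scaling, other tools, other filters and 1 pair left out, which was decided after seeing the data, and in each of these most antiviral and MHC class I genes tested grew upwards and most replication and mitosis genes downwards. Without the pair as a block (no replicate block) the difference was called in 3858 genes and the responses in 1522 at 2 h and 4675 at 14 h, with 1273 and 1408 growing, 308 and 246 fading, 165 and 92 sign-changing and 239 and 53 lasting genes (upwards and downwards), and with 0 sign-changing ribosomal protein genes and 0 sign-changing TOP-mRNAs of the study. The sign change of single ribosomal protein genes therefore rests on the pairing, while their medians without it were 0.27 and -0.48. With DESeq2 the 2 h response was called in 2553 genes, 314 faded downwards, 427 and 376 changed sign and 123 lasted downwards. With total counts alone 384 lasted downwards. At an adjusted p under 0.01, 487 changed sign upwards. With a difference of at least 1 required, 1510 differences were called, 402 and 454 genes grew, 132 and 90 faded, 256 and 136 changed sign and 652 and 372 lasted. Since lasting responses need a missing call, that minimum moves genes into this class. The 10 lasting antiviral effectors became 4 with limma-voom. Each time fitted alone gives no value for the difference.

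With 1 pair left out in turn, the difference was called in 6347 to 6682 genes, the 2 h response in 3331 to 3845 and the 14 h response in 6665 to 7615. Growing genes numbered 1900 to 2130 and 1811 to 2163 (upwards, then downwards), fading 509 to 610 and 381 to 472, sign-changing 644 to 704 and 517 to 614, and lasting 357 to 422 and 185 to 228. Growing members were 27 to 30 antiviral effectors, 19 MHC class I genes, 47 to 51 replication and 42 to 44 mitosis genes, and sign-changing members 61 to 69 ribosomal protein genes and 51 to 56 TOP-mRNAs of the study.

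Of 592 differences of named genes recomputed, 581 kept their direction and call and none reversed. Ackr3 lost its call without the block (1.66, adjusted p = 0.11), and 10 recomputed differences gained one. Without replicate 3 at 2 h the lasting genes Irgm1 (0.34, adjusted p = 0.018), Serpina3n (-1.05, adjusted p = 0.0019) and Egr2 (-0.61, adjusted p = 0.044) had a called difference, as had Isg20 in 6 settings, among them omission of replicate 5 at 2 h (1.71, adjusted p = 0.020) or of replicate 1 at 14 h (1.76, adjusted p = 0.018), and Serpina3n without a filter (-0.62, adjusted p = 0.032). Depth limits genes with near-empty vehicle libraries, such as Zbp1, for which no difference of ratios could be estimated.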
